A study of Homo sapiens with 6 samples.

Results

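The CXC chemokines that attract neutrophils, with their receptors, were examined in the U87 line, an established line of human glioblastoma cells, after exposure to rutaecarpine. The members are 8 genes, found by their names in a table of 60671 genes. They are the 6 ligands CXCL1, CXCL2, CXCL3, CXCL5, CXCL6 and CXCL8 and the 2 receptors CXCR1 and CXCR2. These ligands are small secreted proteins with a Glu-Leu-Arg (ELR) motif ahead of their first cysteines. They bind CXCR1 and CXCR2, receptors coupled to G proteins, and draw neutrophils along a gradient. Their genes sit together on chromosome 4, and inflammatory cytokines such as interleukin-1 and TNF induce several of them through NF-kappaB. In glioblastoma, CXCL8 (interleukin-8) is known as a secreted product of the tumor cells.

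Rutaecarpine is an alkaloid of Evodia rutaecarpa, and the study asked how it acts on glioblastoma migration through the aryl hydrocarbon receptor (AhR). The 3 libraries of the rutaecarpine group came from cells given 100 μM of the compound for 48 h in serum-free medium. The 3 control libraries came from cells given 0.1% DMSO for the same time, and the rutaecarpine stock was also dissolved in DMSO, so that both groups held 0.1%. U87 is a single line grown without other cell types. The labels do not say whether the 3 libraries of a group came from separate cultures, so the p values measure the spread between these libraries, which may be technical.

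Each value is in TPM, a measure that corrects for transcript length and brings each library to a common total, so that levels of different genes can be set side by side. Read numbers are not held in TPM, and the depth of the libraries is unknown. At 1 TPM or more, the libraries held 13758 to 14475 genes. Control replicate 3 stood apart. Its median log2(TPM + 1) was 3.56 over the tested genes, against 3.81 to 3.99 in the other 5 libraries, and the fold changes of the members are given with and without it. Of the 12 markers of U87, glial or mesenchymal identity, VIM, FN1, CD44 and TNC were high, GFAP lay between 3.48 and 5.41 TPM, and S100B and SOX2 were at or near 0. CDKN2A, CDKN2B and MTAP, which are deleted in this line, reached at most 0.06 TPM. The summed TPM of these 12 markers was lower after rutaecarpine, at 9184 to 10009 against 13125 to 16132 in the control libraries. In the limma comparison used for the members, with thresholds on the adjusted p (0.05) and the log2 fold change (1), none of the 7 tested markers passed both, but 4 passed the first. FN1, which encodes fibronectin (log2 fold change -0.89, adjusted p = 0.00972), VIM (-0.63, 0.00894) and NES (-0.53, 0.0491) were lower, and OLIG2, a glial transcription factor, was higher (0.83, 0.0262). The share of all tested genes past the adjusted p alone is not given here. The part of this shift in the results on the ligands was not tested. The pan-leukocyte marker PTPRC reached at most 0.03 TPM and S100A12 was at 0, and 11 of the 14 leukocyte markers stayed under 1 TPM in every library. The summed TPM of the leukocyte markers was 10.2 to 11.7 in the control libraries and 12.5 to 14.8 in the rutaecarpine libraries, most of it from ITGAX. The 9 endothelial and epithelial markers together summed to 3.10 to 5.84 TPM in the control libraries. Their sum was 3.73 to 5.49 TPM in the rutaecarpine libraries. In RNA from a whole culture, a change in the number of cells that make a transcript and a change in the transcript per cell cannot be told apart.

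Rutaecarpine-treated cells held more RNA of CXCL2, CXCL8 and CXCL3, which passed the thresholds in every setting tried. CXCL5, a low gene, also passed, but in only 4 of 14 alternative settings. The means of CXCL2, CXCL8, CXCL5 and CXCL3 were 8.53, 5.10, 3.93 and 2.85 times those of the control group. CXCL1 was 1.29 times the control mean and did not pass the thresholds. CXCL6 and both receptors were at or near 0 in all 6 libraries. For the test, log2(TPM + 1) was compared between groups with limma over the 14377 genes that reached 1 TPM in 3 or more libraries, with Benjamini-Hochberg adjustment. A gene was called when its adjusted p was at most 0.05 and its log2 fold change was above 1 or below -1. Of the 8 members, 5 entered the test, 4 were called higher and 0 were called lower. Over all tested genes 289 (2.01%) were called higher and 216 (1.5%) lower, and 251 and 295 once the libraries were centred on their medians. All rutaecarpine libraries lay above all control libraries for the 5 tested members, as they did for 19.3% of all tested genes. The median log2 fold change was 1.47 over the tested members and 0.08 over all tested genes. CXCL5 entered the test through its rutaecarpine values, which makes these counts a description.

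**Figure D1:**
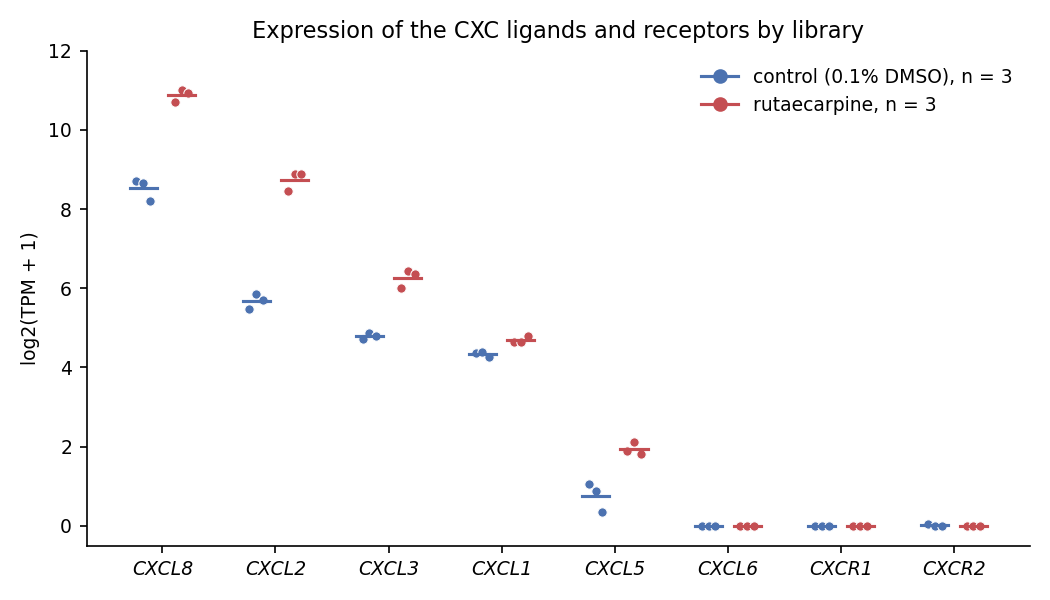
The log2(TPM + 1) of the 8 members in each library (points; replicates 1 to 3 from left to right) with the group mean (bars), for the control group and the rutaecarpine group (n = 3 each). The groups do not overlap for CXCL8, CXCL2, CXCL3, CXCL1 and CXCL5, while CXCL6, CXCR1 and CXCR2 lie at or near 0.

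CXCL8 (ENSG00000169429) encodes the best known ligand of CXCR1 and CXCR2 and lies on chr4:73740506-73743716 on the plus strand (GRCh38, GENCODE 29, as for the other members). Its TPM was 420.8, 400.7 and 291.7 in the control libraries and 1658, 2076 and 1944 in the rutaecarpine libraries. Control replicate 3 was the lowest library, and the lowest rutaecarpine value was far above the highest control value. The mean rose from 371 ± 69.4 to 1893 ± 214 TPM (SD, n = 3), and the log2 fold change was 2.36 (SE 0.16, limma adjusted p = 0.000445). By mean TPM it was the 355th gene of the table in control cells and the 66th after rutaecarpine.

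CXCL2 (ENSG00000081041, chr4:74097035-74099293, minus strand) encodes a ligand that acts mainly on CXCR2 and is also named GRO-beta. Its TPM was 43.9, 56.9 and 50.8 in the control libraries and 349, 471 and 472 in the rutaecarpine libraries. Rutaecarpine replicate 1 was the lowest treated library for this gene, as it was for CXCL8 and CXCL3. The mean rose from 50.5 ± 6.50 to 431 ± 70.7 TPM (SD, n = 3), and the log2 fold change was 3.06 (SE 0.15, limma adjusted p = 0.000174). This was the 13th highest log2 fold change of all tested genes, and that of CXCL8 was the 37th.

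CXCL3 (ENSG00000163734, chr4:74036589-74038807, minus strand), or GRO-gamma, is a close relative of CXCL2. Its TPM was 25.5, 28.5 and 26.9 in the control libraries and 63.5, 85.3 and 81.5 in the rutaecarpine libraries. The mean rose from 27.0 ± 1.49 to 76.8 ± 11.6 TPM (SD, n = 3), with a log2 fold change of 1.47 (SE 0.13, limma adjusted p = 0.00122). The control libraries lay close together, and the spread was wider after rutaecarpine.

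CXCL1 (ENSG00000163739, chr4:73869393-73871242, plus strand), or GRO-alpha, is the third gene of this close group. Its TPM was 19.63, 19.95 and 18.26 in the control libraries and 24.0, 24.1 and 26.5 in the rutaecarpine libraries. The groups did not overlap, but the gap between them was narrow. The means were 19.3 ± 0.898 and 24.9 ± 1.43 TPM (SD, n = 3). The log2 fold change was 0.35, with a 95% interval from 0.10 to 0.61, and its limma adjusted p was 0.0999. Its upper bound lay under the lower bounds for CXCL3 (1.15), CXCL8 (1.99) and CXCL2 (2.71).

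CXCL5 (ENSG00000163735, chr4:73995642-73998779, minus strand) encodes a ligand of CXCR2 also known as ENA-78. It was the weakest of the ligands with a signal. Its TPM was 1.07, 0.85 and 0.27 in the control libraries and 2.70, 3.37 and 2.54 in the rutaecarpine libraries. The mean was 0.730 ± 0.413 TPM in control cells and 2.87 ± 0.440 TPM after rutaecarpine (SD, n = 3). The log2 fold change was 1.19 (SE 0.23, limma adjusted p = 0.0227), with a 95% interval from 0.64 to 1.73. The added 1 TPM weighs on a gene this low, and with 0.1 added in its place the log2 fold change was 1.99. The call was kept in 4 of 14 alternative settings, and without control replicate 3 the log2 fold change was 0.98, under the fold threshold.

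CXCL6 (ENSG00000124875, chr4:73836497-73849064, plus strand), the ligand most similar to CXCL5 and a ligand of both receptors, was listed at 0 in all 6 libraries. CXCR1 (ENSG00000163464, chr2:218162845-218166995, minus strand), which binds chiefly CXCL8 and CXCL6, was also listed at 0 throughout. CXCR2 (ENSG00000180871, chr2:218125289-218137253, plus strand), the receptor shared by all of these ligands, was at 0.03 TPM in control replicate 1 and at 0 in the other 5 libraries. With a single value above 0, a permutation of the libraries gives the same difference in size each time, so a test of CXCR2 says nothing. Of 82 cytosolic ribosomal protein genes, 1 was also listed at 0 in all libraries, so a listed 0 is not taken here as absence of the transcript. RNA of 5 ligands was thus measured in cells in which hardly any RNA of their classical receptors was detected.

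The order of the ligands by TPM was CXCL8, CXCL2, CXCL3, CXCL1 and CXCL5 in the control group and in the rutaecarpine group. No pair of neighbours in this order overlapped in range within either group. Without control replicate 3 the log2 fold changes were 3.07 for CXCL2, 2.20 for CXCL8, 1.47 for CXCL3 and 0.31 for CXCL1, all with the same call as with it. The plot of fold changes by setting shows how far each estimate moved.

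**Figure D2:**
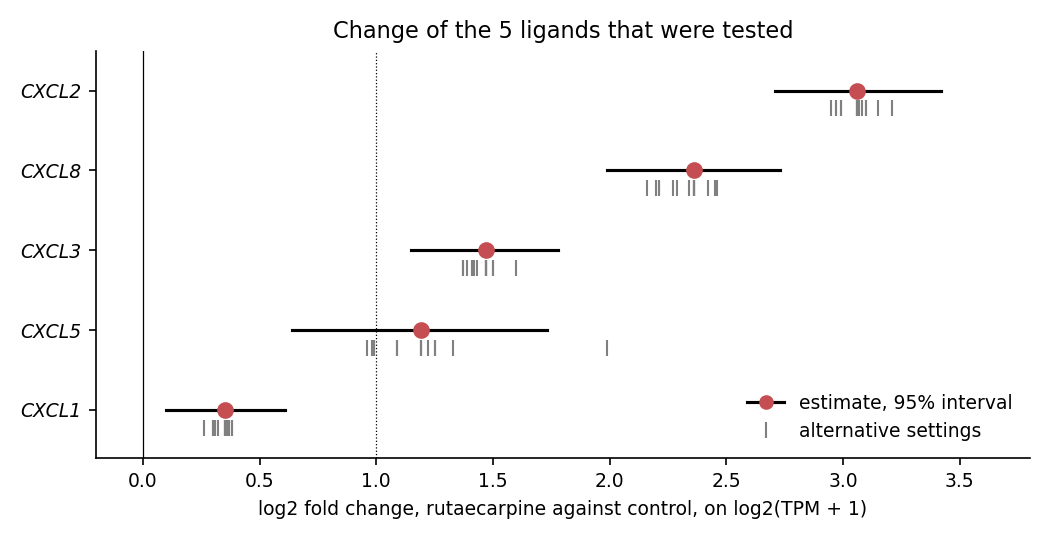
The log2 fold change of the 5 tested ligands on log2(TPM + 1), rutaecarpine against control (red points), with its 95% interval (black lines) and the estimates under the alternative settings (grey ticks). The dotted line marks the threshold of 1. CXCL2, CXCL8 and CXCL3 stay right of it throughout, CXCL1 stays left of it, and CXCL5 falls on either side with 0.96 to 1.99.

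Summed over the 6 ligands, the RNA amounted to 511, 507 and 388 TPM in the control libraries and to 2098, 2660 and 2527 TPM in the rutaecarpine libraries. The mean sum was 468.5 ± 69.9 and 2428 ± 294 TPM (SD, n = 3), a ratio of 5.18. As a share of all TPM of a library, the ligands went from 0.0390 to 0.0515% in control cells to 0.211 to 0.267% after rutaecarpine. CXCL8 made up most of this sum in both groups, with 75.2 to 82.4% in control libraries and 76.9 to 79.0% in rutaecarpine libraries. The share of CXCL2 was higher after rutaecarpine in every library, at 16.7 to 18.7% against 8.59 to 13.1%. The shares of CXCL3 (4.99 to 6.94% and 3.03 to 3.23%) and CXCL1 (3.84 to 4.71% and 0.906 to 1.14%) were lower, although neither gene had a lower TPM.

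Ratios within a library do not depend on how the libraries were scaled, and most of those between the ligands lay apart in the 2 groups. The ratio of CXCL2 to CXCL1 was 2.24, 2.85 and 2.78 in the control libraries and 14.6, 19.5 and 17.8 in the rutaecarpine libraries. The ratio of CXCL2 to CXCL3, which are neighbours among the ligand genes, was 1.72, 2.00 and 1.89 against 5.50, 5.52 and 5.79. In both cases the lowest treated library was far above the highest control library. The ratio of CXCL8 to CXCL2 moved the other way, from 9.59, 7.04 and 5.75 to 4.74, 4.40 and 4.12. CXCL8 rose against CXCL3 (16.5, 14.1 and 10.8 to 26.1, 24.3 and 23.8) and against CXCL1 (21.4, 20.1 and 16.0 to 69.1, 86.1 and 73.3). In 7 of the 10 pairs among the 5 measured ligands the groups did not overlap, and the 3 pairs that overlapped all held CXCL5. The 10 pairs are built from the same 5 genes and are not separate observations. The share of pairs of other genes that lie apart was not computed. Of single tested genes, 19.3% had every rutaecarpine library above every control library. That share counts only the higher direction, while a pair counts as apart in either, so it is no measure for the pairs. With 3 libraries against 3, the exact permutation test (two-sided) cannot go below p = 0.1, and the Benjamini-Hochberg adjusted values over the 10 pairs were 0.143 to 0.8, so no single pair could pass 0.05.

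**Figure D3:**
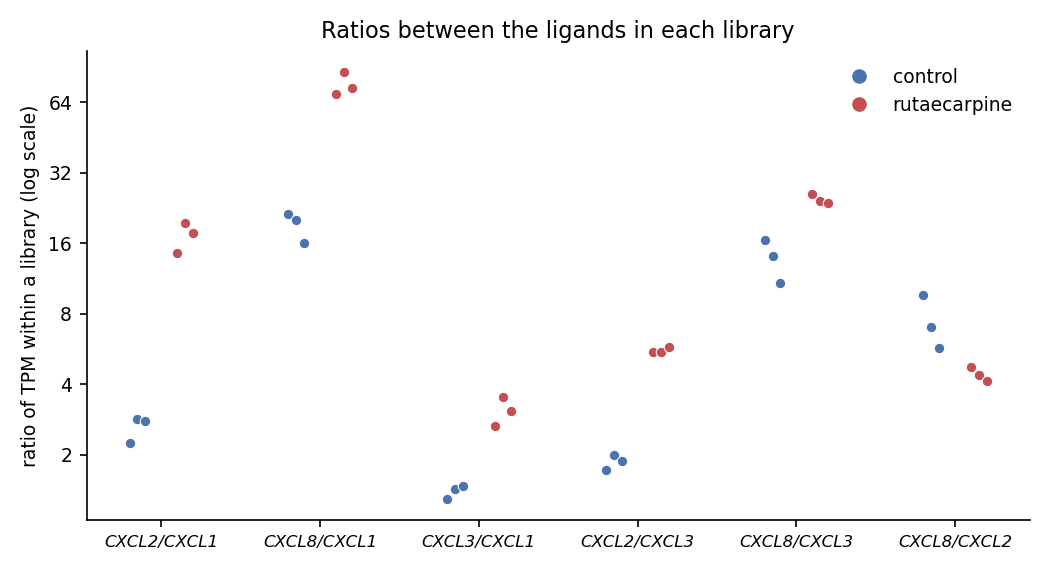
Ratios of TPM between 2 ligands within each library, on a log scale, for 6 pairs (points are libraries, n = 3 per group). The ratios of CXCL2, CXCL8 and CXCL3 to CXCL1 are higher in every rutaecarpine library, and CXCL8 to CXCL2 is the pair that is lower.

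CXCL1, CXCL2 and CXCL3 are near copies, and RSEM divides reads that match more than one of them. In the GENCODE 29 transcripts, 5.73% of the 50-base windows of CXCL1, 9.24% of those of CXCL2 and 5.26% of those of CXCL3 were found unchanged in another member. No 100-base window was shared, and CXCL5, CXCL6 and CXCL8 shared none of either length. The read length was not given in the sources used here. Summed over the 3 genes, which leaves out how reads were divided among them, the TPM was 89.0, 105.3 and 95.9 in the control libraries and 437, 581 and 580 in the rutaecarpine libraries. This sum rose with a log2 fold change of 2.44 (SE 0.13, limma adjusted p = 0.000229). It was chosen after the values of the single genes were seen.

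The 6 ligand genes share a short stretch ahead of their RefSeq transcription start, which is shown because it is common to the ligands that rose, to CXCL1 and to CXCL6. The 120 bases directly upstream of the RefSeq start (GRCh38.p14) are given in the direction of transcription, from chr4:73740449-73740568 (plus) for CXCL8, chr4:74099196-74099315 (minus) for CXCL2, chr4:74038690-74038809 (minus) for CXCL3, chr4:73869273-73869392 (plus) for CXCL1, chr4:73998678-73998797 (minus) for CXCL5 and chr4:73836558-73836677 (plus) for CXCL6. Capitals mark GGAATTTCC, a sequence of the kind bound by NF-kappaB. The GENCODE gene spans given above begin elsewhere for most of these genes. In CXCL2, CXCL3, CXCL5 and CXCL6 the capitals lie inside the span, so they follow the start that it implies. The whole stretch shown for CXCL6 lies inside its span. In CXCL1 and CXCL8 the capitals lie ahead of the span.
CXCL8: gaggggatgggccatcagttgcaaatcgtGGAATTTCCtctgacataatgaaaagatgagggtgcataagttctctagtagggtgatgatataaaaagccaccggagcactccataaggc
CXCL2: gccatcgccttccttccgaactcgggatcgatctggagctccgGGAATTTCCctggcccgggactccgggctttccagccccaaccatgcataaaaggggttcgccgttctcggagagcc
CXCL3: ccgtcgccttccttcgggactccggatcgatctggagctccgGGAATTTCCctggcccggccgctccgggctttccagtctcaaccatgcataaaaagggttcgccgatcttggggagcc
CXCL1: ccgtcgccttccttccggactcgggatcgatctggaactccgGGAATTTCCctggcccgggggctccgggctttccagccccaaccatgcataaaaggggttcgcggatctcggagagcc
CXCL5: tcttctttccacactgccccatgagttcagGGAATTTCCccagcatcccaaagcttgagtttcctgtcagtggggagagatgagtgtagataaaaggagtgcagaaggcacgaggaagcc
CXCL6: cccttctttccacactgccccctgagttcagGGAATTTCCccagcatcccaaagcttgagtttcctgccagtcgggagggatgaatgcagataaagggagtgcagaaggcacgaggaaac
The capital letters were found in 6 of 6 ligand promoters and in 0 of 2 receptor promoters, searched on both strands from 250 bases before to 50 bases after the start. The same letters were found in 0.461% of 35116 RefSeq promoters. The motif was chosen after the promoters had been read, so this share describes how rare it is and is no test. Its first base lay 91 bases upstream of the RefSeq start in CXCL8, 77 in CXCL2 and 78 in CXCL1 and CXCL3. It lay 90 bases upstream in CXCL5 and 89 in CXCL6. These distances, and those given below, hold for the RefSeq start only. CXCL1, which did not pass the thresholds, and CXCL6, which was listed at 0, thus carried the same letters as the ligands that rose.

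Around these letters the promoters differed. Over the 250 bases upstream of the start, CXCL5 and CXCL6 were 85.3% identical, CXCL1 and CXCL3 81.4%, CXCL2 and CXCL3 73.3%, and CXCL1 and CXCL2 70.4%. CXCL1, CXCL2 and CXCL3 were 44.7 to 46.9% identical to CXCL5 and CXCL6, and CXCL8 was 35.3 to 41.5% identical to the others. The identity of unrelated stretches was not computed, so these values are only set side by side. The NF-kappaB consensus, which overlaps the 9 capital letters, was matched in the other 5 ligand promoters on both strands and in 11.3% of all promoters. The AP-1 site TGANTCA was found in CXCL8 alone among the members, 137 to 131 bases upstream, and in 7.71% of all promoters. The core of the dioxin response element that AhR binds, CACGCNA, was found in 0 of the 8 member promoters and in 5.51% of all promoters, which says only that these letters are not in these windows.

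The ligand genes were also set among their neighbours on chromosome 4, from RASSF6 to AREG (chr4:73571550-74455009, 883 kb), a stretch chosen after values had been seen. It holds 24 genes of the table, of which 11 were at 0 in all libraries and 7 were tested. The 7 are the 5 ligands already described, with CXCL5 among them, and 2 other genes, and 6 were called higher, against 2.01% of all tested genes. Besides the 4 called ligands, the calls were EREG, which encodes the EGF receptor ligand epiregulin, and MTHFD2L, a mitochondrial folate enzyme. MTHFD2L begins 373.7 kb from the start of CXCL8, just beyond CXCL2. Its mean was 16.1 ± 2.99 TPM in control cells and 35.4 ± 1.55 TPM after rutaecarpine (SD, n = 3), and its log2 fold change was 1.10 (limma adjusted p = 0.00532). EREG begins 624.6 kb from the start of CXCL8 and had means of 66.2 ± 25.3 and 503 ± 43.9 TPM (SD, n = 3) and a log2 fold change of 2.99 (limma adjusted p = 0.00156). Between the ligands lie genes with almost no RNA in either group. PF4 and PF4V1, chemokines of platelets, were listed at 0 throughout, and PPBP, a platelet ligand of CXCR2, reached at most 0.13 TPM although its gene is the nearest neighbour of CXCL5 toward CXCL1.

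**Figure D4:**
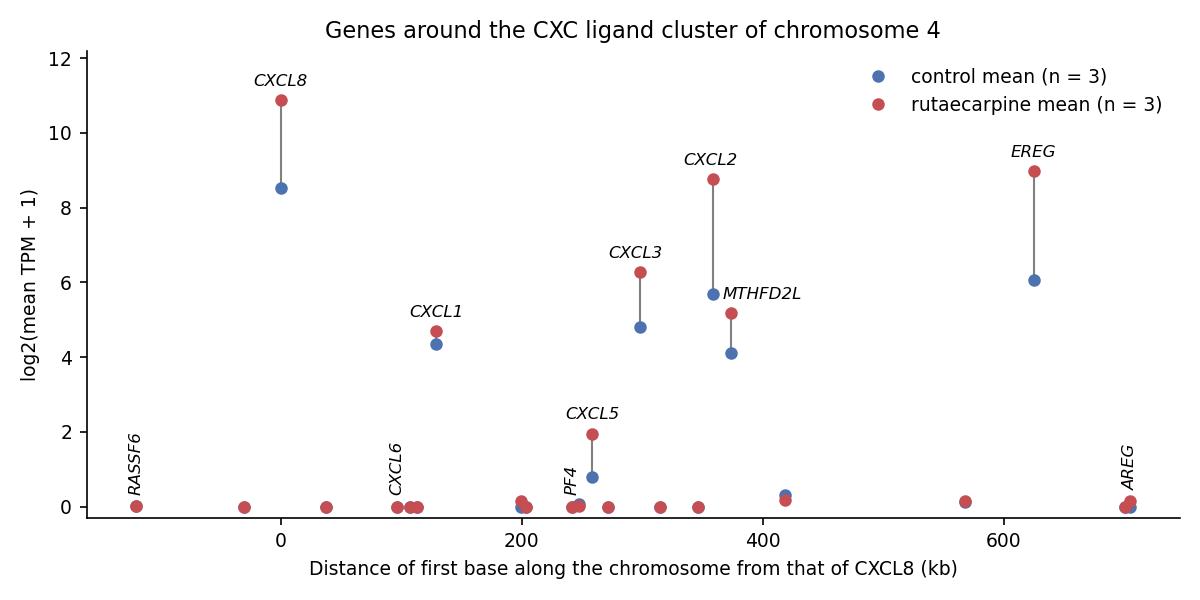
Mean log2 level of the 24 genes around the ligand cluster (log2(mean TPM + 1); control and rutaecarpine group means, n = 3 each, joined by a grey line) against the distance in kb of each gene's first base along the chromosome from that of CXCL8. CXCL8, CXCL2 and EREG show long upward lines, CXCL1 a short one, and most genes between them lie near 0.

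The genes around the ligands in their pathway were read from 6 lists of 102 genes, chosen with earlier results of these data known. Of these, 75 were tested, 11 (14.7%) called higher and 2 (2.67%) lower. Over all tested genes, 2.01% were called higher and 1.5% lower. In the list of inducing cytokines, related cytokines and receptors, 7 of 16 tested genes were called higher and 0 lower. The median log2 fold change was 0.70. Not all of the 7 are inducers, as they include the antagonist IL1RN and the receptor TNFRSF1B. IL1B, which encodes interleukin-1 beta, a strong inducer of CXCL8 and CXCL2, was at 204, 213 and 173 TPM in the control libraries and at 6308, 6786 and 6915 TPM in the rutaecarpine libraries. IL1A, its close relative, went from 4.34 ± 1.12 to 43.7 ± 3.25 TPM, and IL1RN, the receptor antagonist of both, from 12.4 ± 1.53 to 65.0 ± 3.82 TPM (SD, n = 3). The log2 fold changes were 5.08 for IL1B, 3.09 for IL1A and 2.30 for IL1RN. The signalling receptor IL1R1 was at 18.3 ± 4.79 and 18.0 ± 3.39 TPM (log2 fold change -0.01). TNF did not pass the filter, with 0.24 to 0.40 TPM in control libraries and 0.66 to 1.38 TPM after rutaecarpine.

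The other calls of this list were the IL-6 family cytokines LIF and IL6, the neutrophil growth factor CSF3 and the TNF receptor TNFRSF1B. CSF3, which encodes G-CSF and drives the formation of neutrophils, rose from 576 ± 38.8 to 2536 ± 165 TPM (log2 fold change 2.14). LIF rose from 111 ± 32.9 to 889 ± 134 TPM (log2 fold change 3.02), IL6 from 632 ± 19.7 to 1343 ± 132 TPM (1.08) and TNFRSF1B from 27.7 ± 1.43 to 56.8 ± 2.51 TPM (1.01). The limma adjusted p of the 7 lay between 2.76e-06 and 0.00143. They were named because they were called higher, so the direction they share with the ligands follows from that choice. The other 9 tested genes of the list were not called, with log2 fold changes from -0.18 (TNFRSF1A) to 0.88 (IL6ST).

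Of the 28 transcription and mRNA decay factors of the ligands, all 28 were tested, 2 were called higher and 0 lower, with a median log2 fold change of 0.34. NFKBIZ, an atypical partner of NF-kappaB, was at 53.8, 55.7 and 26.9 TPM in the control libraries and at 108, 106 and 139 TPM in the rutaecarpine libraries (log2 fold change 1.41, limma adjusted p = 0.0237). ATF3, a stress-induced factor, rose from 35.6 ± 5.40 to 93.4 ± 14.0 TPM (1.37). The NF-kappaB subunits NFKB1 and RELA had log2 fold changes of 0.34 and 0.33 and passed neither threshold. In all, 18 of the 28 had an unadjusted p under 0.05, and 8 passed the limma adjusted p without the fold threshold. Higher among these were the activators CEBPB (0.94, adjusted p = 0.00393) and JUN (0.90, 0.00514), the NF-kappaB inhibitors NFKBIB (0.66, 0.00693) and NFKBIA (0.38, 0.0359), JUNB (0.47, 0.014), the NF-kappaB subunit RELB (0.49, 0.0281) and the RNase gene ZC3H12A (0.41, 0.0363). CEBPD, a relative of CEBPB, was lower (-0.79, 0.00706). The shares of all tested genes past these looser cut-offs are not given here, so both counts only describe the list. The median of this list lay between that of all tested genes (0.08) and that of the list of inducing cytokines and receptors.

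Of the signalling genes downstream of CXCR1 and CXCR2, 16 were tested and 0 were called in either direction by limma, with 7 at an unadjusted p under 0.05 and a median log2 fold change of 0.04. PREX1, an activator of the GTPase Rac, with a log2 fold change of 0.78, the G protein subunit GNAI2 (-0.31) and the arrestin ARRB2 (-0.49) passed the limma adjusted p (0.019, 0.0421 and 0.0409) but not the fold threshold. For this list too, the shares of all tested genes past these looser cut-offs are not given. Of the proteases and proteoglycans that cut or hold the ligands, 13 were tested, 2 were called higher and 1 lower, with a median of -0.13. MMP1, a collagenase, rose from 4.13 ± 0.431 to 15.4 ± 0.896 TPM (1.68) and MMP14, a membrane-bound protease, from 313 ± 33.7 to 667 ± 35.7 TPM (1.09). SDC1, a heparan sulfate proteoglycan that binds chemokines, was lower after rutaecarpine, at 49.7 ± 0.662 and 21.7 ± 0.693 TPM (-1.16). The 2 genes of this list that passed the limma adjusted p without the fold threshold were also lower. They were SDC4 (-0.57, adjusted p = 0.0289) and GPC1 (-0.59, 0.00776).

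The chemokines without the ELR motif, whose known receptors are other than CXCR1 and CXCR2, gave a single call, in the opposite direction. Of these 11 genes and receptors, 9 stayed under 1 TPM in every library and 1, CXCL14, was tested. CXCL12 narrowly missed the filter. It was at 1.19, 1.3 and 0.98 TPM in the control libraries and at 0.43, 0 and 0.41 TPM in the rutaecarpine libraries. CXCL14 was called lower, with 7.42, 7.68 and 8.96 TPM in the control libraries and 1.57, 1.43 and 1.93 TPM in the rutaecarpine libraries (log2 fold change -1.77, limma adjusted p = 0.00146). Among the platelet ligands and other receptors, 1 of 6 genes was tested, and it was not called. This was ACKR3, an atypical receptor of CXCL12, with a log2 fold change of -0.65 (limma adjusted p = 0.151).

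**Figure D5:**
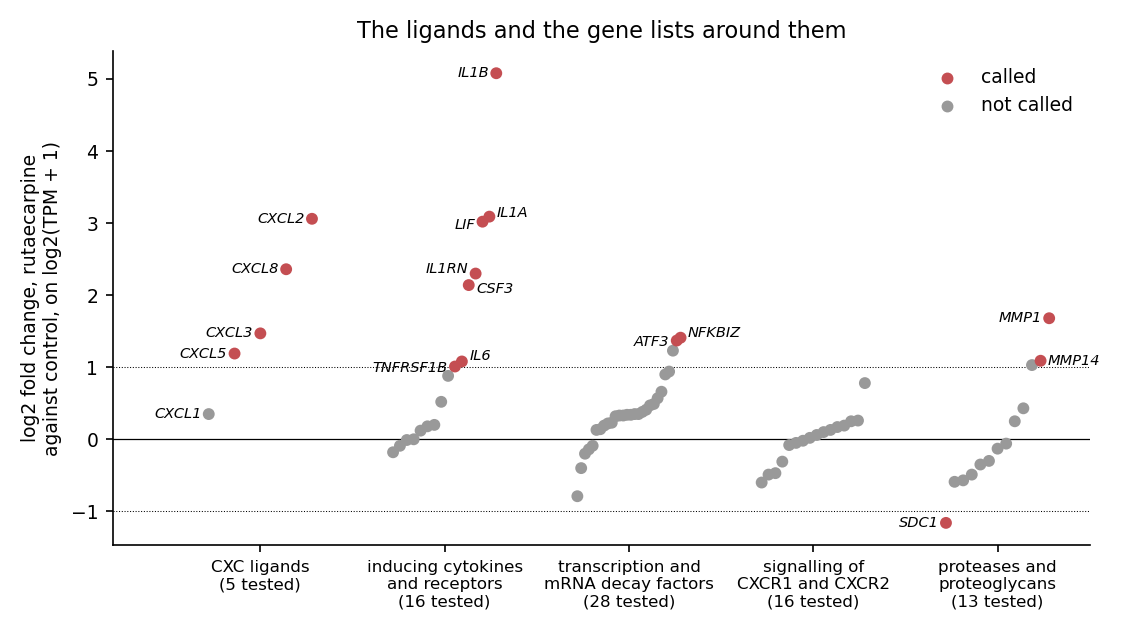
The log2 fold change on log2(TPM + 1) of each tested gene in the CXC ligands and in 4 of the lists around them (red, called; grey, not called; dotted lines, thresholds of 1 and -1). Calls number 4 of 5 in the ligands, where CXCL5 entered the test through its rutaecarpine values. They number 7 of 16 in the list of inducing cytokines and receptors, where not all are inducers. In the signalling genes of CXCR1 and CXCR2 they number 0 of 16. Over all tested genes 2.01% were called higher and 1.5% lower.

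The 5 tested genes whose levels over the 6 libraries were most like the mean standardized profile of the 5 tested ligands were DNAJB9, HSPA5, LYPLAL1, GATA6 and SIAH2, with Pearson's r of 0.998 to 0.9993. HSPA5, the endoplasmic reticulum chaperone BiP, was at 275, 291 and 230 TPM in the control libraries and at 859, 1142 and 1132 TPM in the rutaecarpine libraries. Control replicate 3 and rutaecarpine replicate 1 were its lowest libraries in each group, as for CXCL8. DNAJB9, a co-chaperone of HSPA5, went from 15.3 ± 2.81 to 56.7 ± 5.29 TPM (SD, n = 3). The 6 points of each correlation fall into the 2 groups, so r mostly reflects the difference between them, and no p is given.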

How the data were processed

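RNA-Seq libraries of U87 cells exposed to rutaecarpine at 100 μM (n = 3) or to 0.1% DMSO (n = 3) over 48 h were used. Groups were taken from the sample labels. The values the authors deposited are TPM, made with RSEM, 1 column per library (6 of 6 matched). The submitters' processing notes name GRCh38.p13, and the aligner and annotation release were not given in the sources used here. TPM keep no read numbers, so no count test was run. Rows of the table were matched to the members by gene name. On log2(TPM + 1), the 14377 genes that reached 1 TPM in 3 or more libraries were fitted together with limma 3.58.1 in R 4.3.3 (mean-variance trend, two-sided, Benjamini-Hochberg adjustment). The thresholds (adjusted p of at most 0.05, absolute log2 fold change above 1) follow the study's methods. Fold changes on this scale understate those of low genes. Positions and transcripts came from GENCODE 29 and promoters from RefSeq (GRCh38.p14). Alignments and figures were made in Python 3.11.15 with biopython 1.88 and matplotlib 3.10.9.

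The members and gene lists were chosen with earlier results of these data known. The genes named are the members, list genes that passed the thresholds and the 5 genes most like the ligands. List or neighbouring genes named outside this rule, such as IL1R1, TNF, NFKB1, RELA, RELB, NFKBIA, NFKBIB, JUN, JUNB, CEBPB, CEBPD, ZC3H12A, PREX1, GNAI2, ARRB2, SDC4, GPC1, ACKR3, PPBP, PF4, PF4V1, EREG and MTHFD2L, and the markers, were picked after their values were seen. The fit was run on simulated data with large planted changes and normal noise at the spread of the rutaecarpine libraries. That setting leaves out the shift of control replicate 3, so it checks the code and not the fit to these data. Protein sequences were not analysed here. The alternatives were median centring, no trend, 2 other filters on low TPM, a pseudocount of 0.1, the replicate number as a block, a length and GC correction (natural splines with 5 degrees of freedom) alone and with the block, library weights, and each library left out in turn.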

Additional observations from a re-analysis of the deposited data

How the results depend on the processing

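CXCL2 (log2 fold change 2.95 to 3.21), CXCL8 (2.16 to 2.46) and CXCL3 (1.37 to 1.60) were called higher in all 15 alternatives, and CXCL1 (0.26 to 0.38, adjusted p 0.0198 to 0.346) was called in none. CXCL5 was called in 4 of 14, and it was left out where every library had to reach 1 TPM, since 2 control libraries lie under 1. Its log2 fold change was 1.19 without a filter on low TPM (limma adjusted p = 0.0775), 0.99 after the length and GC correction (0.0124) and 0.96 with library weights (0.00261). Without 1 library in turn it was 0.98 (without control replicate 3) to 1.33, and the call was lost without control replicates 2 and 3 and without each of the rutaecarpine replicates (adjusted p up to 0.0977). The cause was not tested. Members called were 3 or 4, and pathway genes called higher 9 to 11 and lower 2, in every alternative. The replicate numbers are shared between groups, and the labels do not say whether same-numbered samples belong together. The deviations of same-numbered libraries correlated at 0.116, -0.266 and -0.215, and those of libraries with unlike numbers at -0.295 to 0.387. With so few libraries, these values cannot decide whether same-numbered samples were paired. With the replicate block CXCL5 was not called (1.19, limma adjusted p = 0.0702), nor with the block and the length and GC correction (0.99, 0.0525), and the calls of the other members did not change. Over all tested genes, 289 were called higher and 216 lower, against 193 and 125 with the replicate block, 251 and 142 without control replicate 1, 182 and 164 without rutaecarpine replicate 1, and 164 and 156 without rutaecarpine replicate 3. Without read numbers, the counting error of low genes such as CXCL5 and CXCR2 is unknown.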
